A study of Mus musculus with 12 samples.

Results

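The C2H2 zinc finger genes described here are the genes of the deposited RNA-seq tables whose symbols begin with Zfp and a number, Zbtb, Zscan or Zkscan. Zfp36, Zfp36l1 and Zfp36l2 were left out because they encode fingers of another type. The rule found 39 of the 3439 listed genes, of which 30 are Zfp genes, 8 are Zbtb genes, 1 is a Zkscan gene and 0 are Zscan genes. The RNA came from tdTomato+ and tdTomato- group 2 innate lymphoid cells (ILC2s) of the lung. All mice carried TIGIT-Cre-ERT2 and Rosa26-LSL-tdTomato, were male and received papain, a protease allergen, together with tamoxifen until day 19. Tamoxifen lets cells in which the Tigit promoter drives Cre switch on the red protein tdTomato for good, so tdTomato+ marks cells that expressed TIGIT while tamoxifen was given, and tdTomato- ILC2s from the same kind of mouse, with the same alleles and treatment, were the comparison. Each library held 100 sorted cells, and the labels list 4 RNA libraries of each population. The age of the mice and the libraries that entered the comparison are not given in the sources used here.

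A C2H2 finger is a short fold in which a pair of cysteines and a pair of histidines hold a zinc ion, and fingers in a row read DNA sequence. Many Zfp proteins carry a KRAB domain, which recruits the corepressor TRIM28 and silences chromatin, above all at transposable elements, and KRAB genes lie in clusters that expand by duplication. Zbtb proteins carry a BTB domain instead, which pairs them and binds corepressors such as BCOR, and several direct lymphocyte fate.

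The tables give each listed gene 1 average log2 CPM (read counts relative to the size of a library, on a log2 scale) over the libraries and a direction in tdTomato+ relative to tdTomato- ILC2s. They hold no value of a single library, so no spread between replicates or depth is known and no test over libraries could be run. The authors' own fold changes and test results are not used here, and no level of either population is given. "Listed lower" and "listed higher" mean only that a gene stands in the authors' table of that direction. The smallest average in the tables is 5.00 (log2 CPM), so a gene that is not listed may have been too low, may not have differed or may not have been tested.

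Of the 39 zinc finger genes, 34 were listed lower and 5 were listed higher in tdTomato+ ILC2s. The lower share was 87.2%, beside 84.5% of all listed genes, and the higher share was correspondingly close to the 15.5% of all listed genes. The direction of the members as a whole was therefore near the background of the tables. All 8 Zbtb genes and Zkscan17 were listed lower, and the Zfp genes were split into 25 lower and 5 higher. In bulk samples such as these pools, fewer cells of a type and less RNA per cell cannot be told apart.

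**Figure D1:**
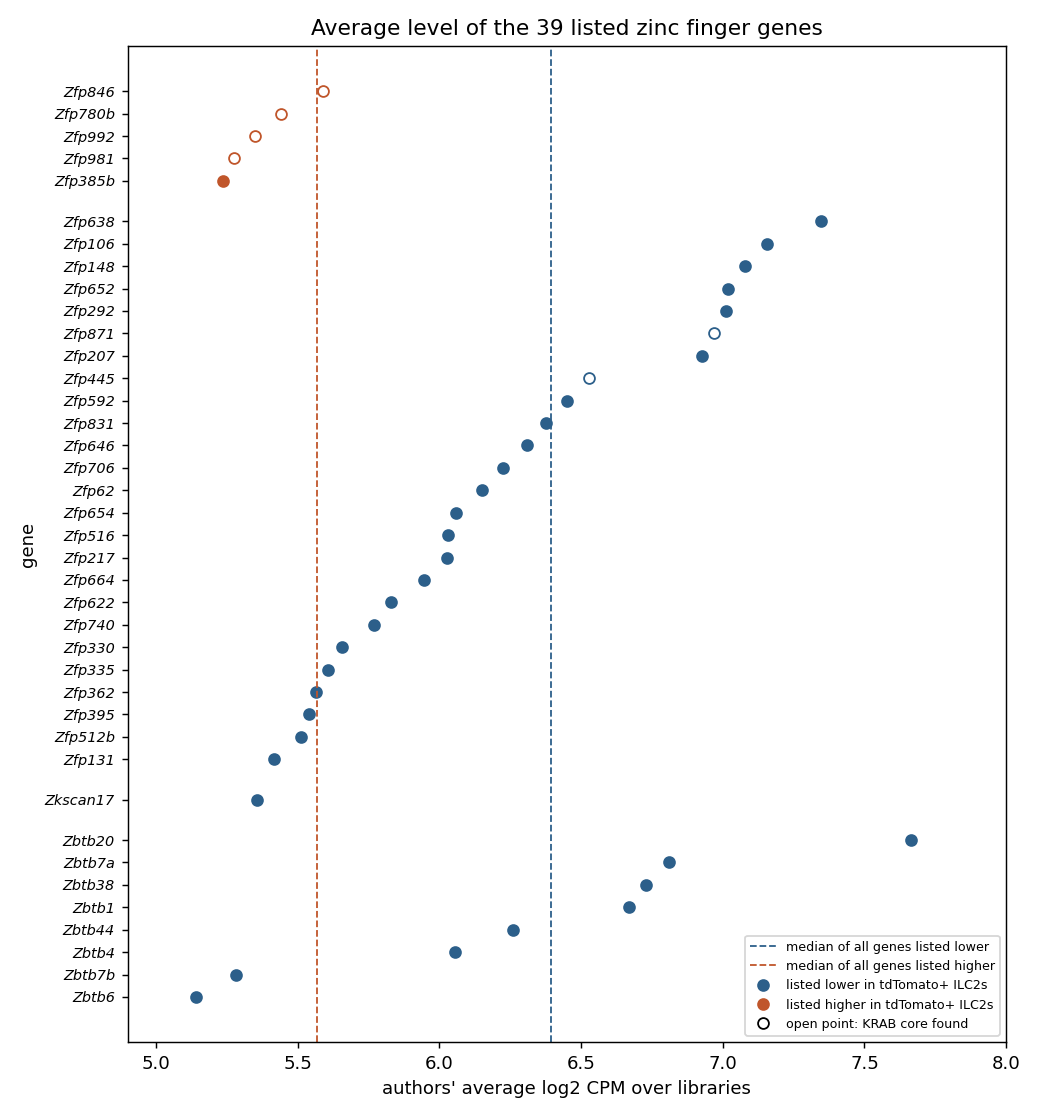
Authors' average log2 CPM over libraries (x axis) of each of the 39 zinc finger genes (y axis), grouped from bottom to top as Zbtb, Zkscan, Zfp listed lower and Zfp listed higher. Blue points are listed lower and orange points higher, open points have a KRAB core, and dashed lines are the medians of all genes listed lower (6.39) and higher (5.57). The 5 orange points lie between 5.24 and 5.59, and the blue points spread from 5.14 to 7.67.

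The 5 genes listed higher were Zfp846, Zfp780b, Zfp992, Zfp981 and Zfp385b. A KRAB core, found by matching the translated coding sequence with at most 3 mismatches, was present in 4 of them, Zfp385b being the exception, and in 2 of the 34 genes listed lower, Zfp871 and Zfp445. To show how alike the higher KRAB genes are to genes in neither table, 1 finger of each is given from the GRCm38 genome, 5′ to 3′ on the coding strand, as the 78 bases from the first cysteine to the end of the canonical linker. Capitals mark the codons of the cysteines and histidines that hold the zinc. The finger of Zfp992 is at chr4:146466547-146466624 (plus strand), that of Zfp981 at chr4:146537340-146537417 (plus), that of Zfp780b at chr7:27964535-27964612 (minus) and that of Zfp846 at chr9:20593335-20593412 (plus), each within a coding exon.
Zfp992: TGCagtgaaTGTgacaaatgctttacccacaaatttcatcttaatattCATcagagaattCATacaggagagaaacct
Zfp981: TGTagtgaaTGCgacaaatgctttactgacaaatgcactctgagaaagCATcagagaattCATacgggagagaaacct
Zfp780b: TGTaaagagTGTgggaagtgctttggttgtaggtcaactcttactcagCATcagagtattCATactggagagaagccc
Zfp846: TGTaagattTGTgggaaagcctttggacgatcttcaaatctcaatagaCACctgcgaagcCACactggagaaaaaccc

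The closest finger in any other annotated gene of the symbol pattern was then found for each, and capitals in the next lines mark the bases at which it differs from the finger above. The closest to Zfp992 was in Zfp991 (chr4:147178891-147178968, plus), the closest to Zfp981 in Zfp600 (chr4:146195520-146195597, plus) and the closest to Zfp780b in Zfp974 (chr7:27911921-27911998, minus).
Zfp991: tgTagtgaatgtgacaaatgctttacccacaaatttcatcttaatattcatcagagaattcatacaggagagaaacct
Zfp600: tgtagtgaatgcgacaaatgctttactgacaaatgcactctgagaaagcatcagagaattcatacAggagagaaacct
Zfp974: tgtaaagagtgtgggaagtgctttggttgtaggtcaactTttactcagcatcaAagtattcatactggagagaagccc

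The finger of Zfp992 differed from that of Zfp991 at 1 base, and the same number separated Zfp981 from Zfp600. Zfp780b differed from Zfp974 at 2 bases, and a further copy of its finger, in Gm7452, was identical. The finger of Zfp846 had no such near copy among genes of the symbol pattern, since the closest, in Zfp426, differed at 19 of the 78 bases. Genes outside the pattern were searched only for identical copies. Zfp991, Zfp600, Zfp974 and Zfp426 were in neither table. From the genes listed lower, a finger of the KRAB gene Zfp445 (chr9:122853384-122853461, minus) and of Zbtb7a (chr10:81145105-81145182, plus) are shown for contrast, with capitals again at the zinc-holding codons.
Zfp445: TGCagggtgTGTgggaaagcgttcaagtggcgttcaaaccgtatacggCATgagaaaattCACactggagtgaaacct
Zbtb7a: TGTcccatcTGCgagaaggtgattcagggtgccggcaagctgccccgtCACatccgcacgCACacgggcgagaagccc

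By the same search, the closest finger to that of Zfp445 differed at 19 bases and lay in Zfp41. That of Zbtb7a differed at 18 bases from the closest, in Zbtb7c.

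Over their longest transcripts, 3 of the 5 genes listed higher shared much sequence with other genes. The measure was the share of 50-base stretches of a gene's longest transcript that also occur in transcripts of another annotated gene. Reads from such stretches could be split or assigned to the wrong gene. Exons outside the longest transcript did not enter the measure. The share was 43.7% for Zfp992 (Zfp991, 37.5%, and the pseudogene Znf41-ps, 36.2%). It was 38.7% for Zfp981 (Zfp600 and Rex2, 29.4% each, and Zfp980, 28.9%) and 27.5% for Zfp780b (Zfp974, 19.7%). A stretch can be shared with several genes at once. Within coding sequence alone the shares were 83.5% for Zfp992, 44.8% for Zfp780b and 38.2% for Zfp981. Zfp385b shared 1.64% and Zfp846 shared 0.433%. Thus 3 of the 5 genes listed higher exceeded 10%, and 0 of the 34 listed lower did. Sharing of this size went with the KRAB class, since 81 of 231 annotated family genes with a KRAB core (35.1%) exceeded 10%, against 18 of 231 without one (7.79%), so class and direction cannot be told apart in these 5 genes. Among all listed genes, 11.4% of the lower and 9.19% of the higher exceeded this limit.

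The counts of Zfp992, Zfp981 and Zfp780b are therefore uncertain, because how the authors treated reads that match several genes is not given in the sources used here. Its part in their listing was not tested. Of the genes listed lower, Zbtb6 had the largest share, 9.21%, of which 7.96% was with Zbtb26. In Zfp706, a very small protein of 76 residues, 92.2% of the coding sequence was shared with other genes. In Zfp330, 34.1% of the coding sequence was shared, and over its longest transcript the pseudogene Gm7785 held 5.29%.

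**Figure D2:**
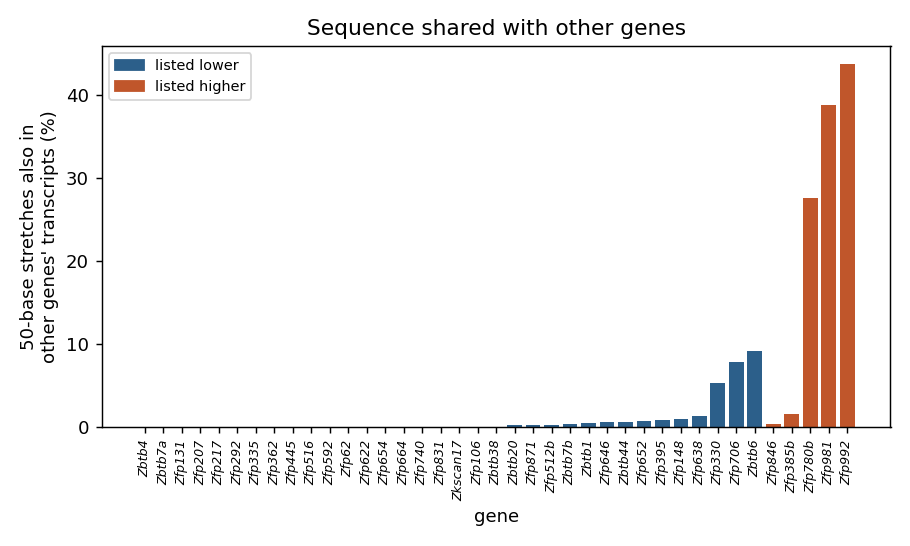
Share of 50-base stretches of the longest transcript also found in other genes (y axis, percent) for each of the 39 zinc finger genes (x axis). There is 1 bar per gene, blue for genes listed lower and orange for genes listed higher. Zfp780b, Zfp981 and Zfp992 stand at 27.5%, 38.7% and 43.7%, and every blue bar is at 9.21% or below.

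The genome holds 462 annotated protein-coding genes of the same symbol pattern, of which 423 were in neither table. Of the whole family, 7.36% were listed lower and 1.08% higher, beside 13.2% and 2.31% of all 21951 annotated protein-coding genes. The parts of the family differed in these counts. Of 230 annotated Zfp genes with a KRAB core, 2 (0.870%) were listed lower and 4 (1.74%) higher. Of 161 Zfp genes without a matched core, 23 (14.3%) were listed lower and 1 (0.621%) higher. A KRAB domain that departs further from the pattern would count as absent in this split. Among the 11 annotated Zkscan genes, a core was matched in 1. For Zbtb genes the count was 8 of 41 (19.5%) lower and 0 higher. Of 11 Zkscan genes 1 was listed lower, and of 19 Zscan genes 0 were listed in either direction.

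Read against the background, the KRAB genes in the higher table made up a share of their family near that of all genes, and the contrast lay in the lower table, where KRAB genes were at 0.870% beside 13.2%. This is a count with no test, and a gene may be in neither table because its average was too low.

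**Figure D3:**
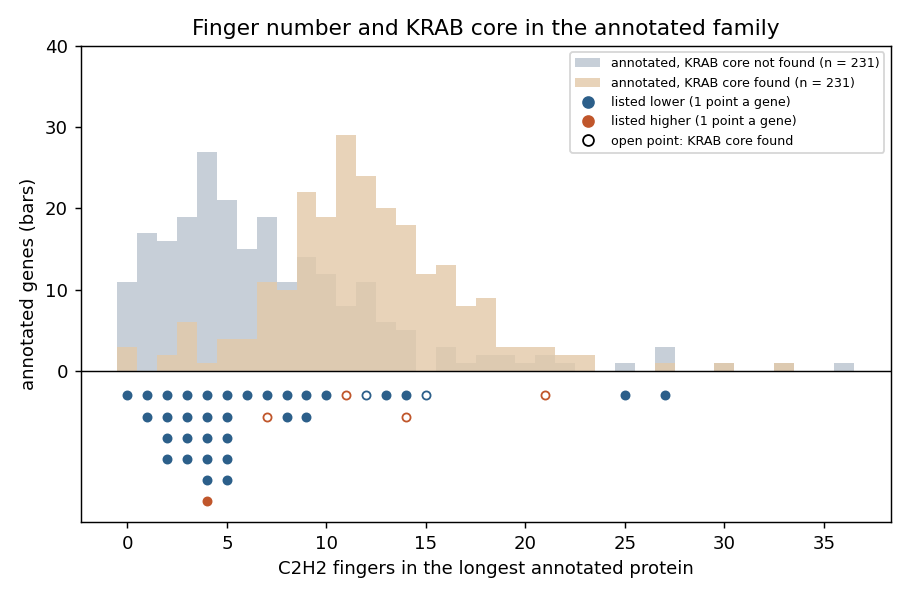
Number of C2H2 fingers in the longest annotated protein (x axis) of the 462 annotated genes of the symbol pattern, as bars (y axis, number of genes; grey without and tan with a KRAB core), and of the 39 listed genes as 1 point each under the axis (blue lower, orange higher, open with a KRAB core). Most tan bars lie to the right of the grey ones, with few of their genes listed, and the genes listed lower gather at 5 fingers or fewer.

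Fingers were counted in translated coding sequences as a pair of cysteines 2 to 4 residues apart, 12 residues, and a pair of histidines 3 to 5 residues apart. The median was 5 fingers in the genes listed lower and 11 in those listed higher. In the family at large, Zfp genes with a KRAB core had a median of 12 and those without had 7. Zfp780b had 21 fingers in 1 unbroken array, Zfp992 had 11 and Zfp981 had 7, again all in 1 array, and 13 of the 14 fingers of Zfp846 formed an array. Zfp385b differed from these, with 4 fingers of which no pair was adjacent.

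Among the genes listed lower, Zfp646 had 27 fingers but no more than 4 in an array. Zfp62 had 25, with 24 in an array, and the KRAB gene Zfp871 had 15, all in an array. At the other end, Zfp395 and Zfp706 had 1 finger each and Zfp330 had 0 by this motif. Fingers of the Zbtb genes were few and close together, from 3 in Zbtb7a and Zbtb7b to 9 in Zbtb38, with 3 to 5 in the longest array.

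Of the 6 listed genes with a KRAB core, 5 had other KRAB genes within 500 kb. Zfp992 (chr4:146449023-146470292, GRCm38) and Zfp981 (chr4:146502027-146539395) were the only pair of members within this distance of each other, and both were listed higher. Zfp992 had 4 and Zfp981 had 5 genes of the family within this distance, all with a KRAB core. Zfp780b (chr7:27959135-27979171) had 7 such neighbours, 6 with a KRAB core, and Zfp846 (chr9:20581291-20605409) had 4, all with one. None of the neighbours of Zfp780b or Zfp846 was listed. Zfp871 (chr17:32765496-32788287), listed lower, had 8 neighbours, all with a KRAB core and 0 of them listed. Zfp445 (chr9:122844529-122866006), also listed lower, had 2 neighbours of the family, 0 of them with a KRAB core.

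Among the KRAB genes listed lower, Zfp445, which maintains genomic imprints, had an average of 6.53 log2 CPM. Zfp871 had 6.97. The higher KRAB genes had fewer reads than both, with averages of 5.59 for Zfp846, 5.44 for Zfp780b, 5.35 for Zfp992 and 5.28 for Zfp981, and Zfp385b had 5.24. Per kb of exon, a rough allowance for length, the average level was 3.64 log2 CPM per kb for Zfp445 and 3.49 for Zfp871. It was 3.61 for Zfp981 and 3.16 for Zfp992, but 2.24 for Zfp780b, 2.20 for Zfp385b and 1.81 for Zfp846. On this scale Zfp981 and Zfp992 lay within the range of the genes listed lower (2.72 to 4.19), and the other 3 lay below it. This depended on the length used. Per kb of the longest transcript, Zfp385b was at 3.78 and Zfp780b at 3.46 log2 CPM per kb, inside the range of the genes listed lower (2.80 to 5.21), and only Zfp846, at 1.89, lay below it.

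The Zbtb genes were all listed lower, but differed widely in their average. Zbtb20, a repressor known in B lineage cells and liver, was the highest of all 39 genes at 7.67 log2 CPM, which placed it at percentile 87.0 of the genes listed lower. Zbtb7a, a regulator of B against T lineage choice, had 6.81. Zbtb38, which binds methylated DNA, had 6.73, and Zbtb4, with the same property, had 6.06. Zbtb1, needed for lymphoid development, had 6.67, and Zbtb44 had 6.26. Zbtb7b, also called ThPOK, which directs T cells to the CD4 lineage, had 5.28, and Zbtb6 had the lowest average of all 39 genes, 5.14. These averages are not corrected for length.

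Per kb of exon, the Zbtb genes were more alike. Zbtb7a was at 4.04 log2 CPM per kb, and the other 7 lay between 2.72 (Zbtb20) and 3.18 (Zbtb38). Per kb of the longest transcript Zbtb38 was at 3.84, Zbtb20 at 2.92 and Zbtb6, then the lowest, at 2.80. The exons of Zbtb20 cover 30730 bp, the most of all members. Zbtb1 covered 12190 bp, Zbtb38 11733 bp and Zbtb44 9341 bp, and the shortest was Zbtb6 with 5080 bp. Zkscan17, which belongs to the SCAN group of finger proteins and binds the methyltransferase NSD1, was listed lower with an average of 5.36 log2 CPM, 4573 bp of exon and 3.16 log2 CPM per kb. No KRAB core was matched in it.

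Against the Zfp genes, the Zbtb genes were higher in reads and lower per kb. Their median average was 6.46 log2 CPM, against 6.03 for all 30 Zfp genes and 6.15 for the 25 listed lower. Median exonic length was 8729 bp in the Zbtb genes and 7269.5 bp in the Zfp genes. Per kb the order turned, with 3.04 log2 CPM per kb in the Zbtb genes and 3.36 in the Zfp genes, a difference of -0.33. Per kb of the longest transcript the difference was -0.57. Ranges overlapped on each of these scales, and with no value per library the difference could not be tested. Zfp131, which carries a BTB domain despite its symbol, counted as a Zfp gene and had an average of 5.42 log2 CPM, near those of Zbtb7b and Zbtb6.

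Next come the Zfp genes listed lower that were highest in reads, apart from Zfp871 and Zfp445 given above. Zfp638, which helps silence unintegrated retroviral DNA, had 7.35 log2 CPM. Zfp106, an RNA-binding protein needed by motor neurons, had 7.16, and Zfp148, which binds GC-rich promoters, had 7.08. Zfp652 had 7.02, Zfp292 had 7.01 and Zfp207, a spindle protein that binds BUB3, had 6.93. Zfp207 had the highest level of all members per kb, 4.19 log2 CPM per kb, with 2 fingers and 6658 bp of exon. The Zfp genes at the low end were Zfp131, Zfp512b at 5.51, Zfp395 at 5.54, Zfp362 at 5.56 and Zfp335, a cofactor of H3K4 methylation needed for T cell maturation, at 5.61 log2 CPM.

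Longer genes had higher averages. Among Zfp genes listed lower, exonic length was greatest in Zfp638 (15810 bp), Zfp652 (15444 bp) and Zfp871 (11116 bp), which were also among the 8 highest in reads. It was least in Zfp362 (3052 bp), Zfp131 (4614 bp) and Zfp395 (4733 bp), which were among the 5 lowest. Across the 34 genes listed lower, Spearman's rho between exonic length and average log2 CPM was 0.825, beside 0.414 across 2905 genes listed lower. It was 0.70 across the 5 genes listed higher, beside 0.568 across 531 genes listed higher. These are descriptions across genes that share all libraries, and CPM is not divided by length.

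**Figure D4:**
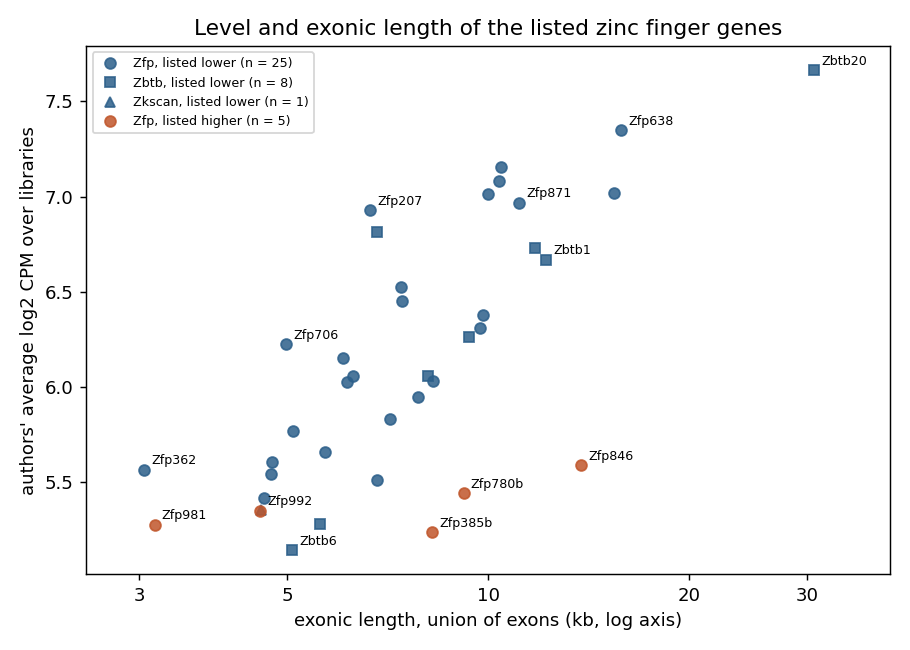
Authors' average log2 CPM over libraries (y axis) against exonic length in kb (x axis, log scale) of the 39 zinc finger genes, with circles for Zfp, squares for Zbtb and a triangle for Zkscan17, blue for genes listed lower and orange for genes listed higher. The blue points climb with length (Spearman's rho 0.825, n = 34), and Zfp385b, Zfp780b and Zfp846 lie under blue points of like length.

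Beside all listed genes, the lower members were long and of modest level. Their median exonic length was 7269.5 bp, against 5194 bp for all genes listed lower. Their median average was 6.19 log2 CPM against 6.39, and per kb it was 3.25 against 3.94 log2 CPM per kb. The higher members had a median exonic length of 8223 bp, below the 10504 bp of all genes listed higher. Their median average was 5.35 log2 CPM against 5.57, and per kb 2.24 against 2.18 log2 CPM per kb. With the longest transcript the values per kb were 3.46 against 2.79, so that a near tie became a gap.

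Of 18 genes for KRAB partners, 12 were listed lower, 0 higher and 6 in neither table, beside 84.5% of all listed genes and 13.2% of annotated protein-coding genes listed lower. Since most listed genes were lower, a direction shared by the 12 listed partners is close to the background of the tables. Trim28, the corepressor that KRAB domains bind, had an average of 6.04 log2 CPM. The heterochromatin protein 1 genes Cbx5, Cbx3 and Cbx1 had 6.61, 6.39 and 5.52, and Chd4 and Chd3, the remodellers of the NuRD complex, had 8.59 and 7.998. The deacetylases Hdac1 and Hdac2 had 6.40 and 5.87, and Dnmt1 and Uhrf1, which keep DNA methylation, had 7.31 and 5.94. The remaining pair were Resf1 (6.99) and Morc3 (6.52). Setdb1, the H3K9 methyltransferase of the same pathway, was in neither table. So were Atf7ip, Atf7ip2, Smarcad1, Dnmt3a and Dnmt3b.

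Of 17 genes for BTB partners, 12 were listed lower, 0 higher and 5 in neither table, again beside 84.5% of listed and 13.2% of annotated genes listed lower. Among those listed lower, the nuclear corepressor Ncor1 had an average of 9.60 log2 CPM, and Tbl1xr1 and Tbl1x, subunits of the same complex, had 7.38 and 5.58. Sin3a had 7.06 and Sin3b had 5.89, Bcor had 6.73 and Cul3, a ubiquitin ligase scaffold bound by BTB domains, had 6.76. Mta2, Mta1 and Mta3 of NuRD had 6.79, 6.63 and 6.15, and Rcor1 had 5.89. Hdac3, Hdac4, Hdac5, Hdac7 and Bcorl1 were in neither table.

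A list of 101 other C2H2 factors, outside the symbol pattern, had 31 genes listed lower, 4 higher and 66 in neither table. Of its listed genes 88.6% were lower, near the 84.5% of all listed genes. Lymphoid factors were among those listed lower, with averages of 8.24 log2 CPM for Ikzf1, 7.93 for Bcl11b, 7.88 for Ikzf3, 6.69 for Ikzf2 and 5.11 for Gfi1. Ctcf, which shapes chromatin loops, had 7.003, Yy1 had 6.56 and Sp1 had 7.26. The 4 listed higher were Zfhx3 (6.10), Mecom (5.97), Zfhx4 (5.61) and Peg3 (5.55). Per kb of exon these 4 lay between 1.63 and 2.33 log2 CPM per kb, and the 31 listed lower were at 2.71 or above. Per kb of the longest transcript Mecom was at 3.46, among the genes listed lower (2.85 or above), and the other 3 stayed at 2.43 or below. The exons of the 4 covered 12427 to 20976 bp.

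The genes left out, Zfp36l2, Zfp36l1 and Zfp36, encode CCCH proteins that bind and destabilise mRNA. All were listed lower, with averages of 8.94, 8.80 and 8.01 log2 CPM, above every member in reads, and had 0 C2H2 fingers by the motif.

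All 13 ILC2 genes looked for were listed lower, from Il13 (6.27 log2 CPM) to Il1rl1 (9.98). Beside this, 84.5% of all listed genes and 13.2% of annotated protein-coding genes were listed lower. Listing gives only a direction between the populations, so it cannot check the labelled cell type. Of 8 T cell genes, 1 was listed, Cd3g, lower with 6.12 log2 CPM. Of 4 genes of NK cells and ILC1, 4 of B cells, 7 of myeloid cells and 5 of epithelium and endothelium, 0 were listed, which does not give their level. The ILC2 genes thus had the same direction as the 34 lower members and as most listed genes. The part of the ILC2 genes in the result was not tested.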

How the data were processed

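RNA was measured in tdTomato- and tdTomato+ ILC2s, 4 labelled libraries each. ATAC-seq of the same populations, with 2 libraries each, is not analysed here. According to the study's methods, reads were checked with FASTP, aligned to GRCm39 with STAR, counted with featureCounts on Ensembl release 104 and compared with edgeR, whereas the submitters' processing notes name mm10. Versions and normalization are not given in the sources used here. The 2 deposited tables hold the authors' log2 fold change, average log2 CPM, likelihood ratio, p-value and FDR per gene, with 0 columns of single libraries. From these, only the average log2 CPM, the symbols, the identifiers and the table a gene stands in were used. Depth and replicate spread are therefore unknown, no interval is given and no test was run.

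Members and lists were chosen with earlier results of these data known. Genes named are all Zbtb, Zkscan and higher members, the 8 highest and 5 lowest lower Zfp genes by average, the 3 at each end by exonic length and by fingers, members within 500 kb of another, and genes of the lists, of which 1 is not reported here. The KRAB core, shared stretches, sequences and neighbour counts were chosen after the members were seen. Genes named as the source of shared sequence were also chosen after their values were seen. Lengths (union of exons), coordinates and translated coding sequences (longest per gene) came from GENCODE M21 on GRCm38, matched by Ensembl identifier for all 39 members and 3436 of 3439 listed genes. That build and release differ from the authors'. Fingers were counted in these translations in place of RefSeq proteins. log2 CPM per kb is the average log2 CPM minus log2 of exonic kb. Python 3.11.15, numpy 2.4.6, pandas 2.3.3 and matplotlib 3.10.9 were used. The code for finger counts, exon unions and KRAB calls was run on simulated data, with 500 of 500 recovered for each. The simulated fingers and KRAB cores were built to the same patterns, the cores with at most 3 mismatches. This checks the code only, not whether KRAB domains that depart further from the pattern are found.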

Additional observations from a re-analysis of the deposited data

How the results depend on the processing

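Of 40 alternative values, 33 kept their direction and were not counted as moved, 7 were counted as moved and 0 reversed. Not all of the 33 were close to the main value. With older symbols matched too, 47 members were listed lower and 6 higher, and the lower share was 88.7%. With an average log2 CPM of at least 6, 22 members were listed lower (34 without this limit), 0 were listed higher and the lower share was 100%, because all 5 higher members lie under it, and the median average of the Zfp genes was 6.49 log2 CPM. With the longest transcript in place of the union of exons, the median length of the Zfp genes was 5136 bp and their median level 3.67 log2 CPM per kb, and, as an alternative chosen after seeing the data, the median level of the 5 higher members was 3.46 in place of 2.24 log2 CPM per kb. The difference of Zbtb minus Zfp was -0.33 log2 CPM per kb and came to -0.57 with the longest transcript and -0.47 with the stricter minimum. The counts of KRAB cores, 4 higher and 2 lower, were the same with at most 2 or 5 mismatches, limits chosen after seeing the data. No paired analysis was possible because the tables hold no value of a single library, and for the same reason no replicate could be left out. A stricter finger motif gave medians of 5 for Zfp and 3 for Zbtb genes, in place of 6.5 and 4.5.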

Other observations

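Older gene symbols of the same pattern added 14 listed genes, 13 lower and 1 higher in tdTomato+ ILC2s. Of all listed genes, 84.5% were lower and 15.5% higher. By the motif, 4 of the 14 held a C2H2 finger. Adnp2 had 4 fingers and an average of 5.85 log2 CPM, and the ubiquitin ligase genes Rnf114 and Rnf166 had 1 finger each and averages of 5.63 and 5.84 log2 CPM, all listed lower. The gene listed higher was Peg3, a paternally expressed imprinted gene, with 11 fingers and 5.55 log2 CPM. Among those without a finger were Kat6a, a histone acetyltransferase, at 7.91 log2 CPM and Sf1, a splicing factor, at 7.65 log2 CPM, both listed lower.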
